A study of Felis catus with 3 samples.

Results

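The 10 genes described here are nuclear genes for subunits of the respiratory chain and of ATP synthase, measured by mRNA sequencing in cultured feline adipose-derived mesenchymal stem cells (ASCs). They were taken by symbol from a fixed list of 10 and matched to Ensembl identifiers through the symbol column of the study's gene table, of which only 1997 rows were used here, and all 10 were found among the 21529 genes of the deposited files. The study sequenced 3 ASC lines, each from another cat's adipose tissue (labelled Gray_Boy, Luna and SPF2 and called Feline ASC 1, 2 and 3 here). It drew on specific pathogen-free (SPF) and client-owned cats. The label SPF2 may mark a cat of the former type, and differences by donor type were not tested. All lines were untreated, noninduced cultures in MEMα with 10% fetal bovine serum, and each gave 1 library of poly-adenylated RNA. Passages 3 to 4 were given for the samples, whereas the paper names passage 3 for the sequenced cultures. With a single condition and a single library per line, differences between lines cannot be set against repeat libraries, and spread is the SD over the 3 lines.

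Oxidative phosphorylation passes electrons from NADH and succinate through complexes I to IV to oxygen and uses the resulting proton gradient in complex V, the ATP synthase. Complexes I, III, IV and V are built from subunits encoded by mitochondrial DNA and by the nucleus, whereas the subunits of complex II, succinate dehydrogenase, are all nuclear. Mesenchymal stem cells in culture are known to draw on glycolysis as well as on respiration. The genes described comprise 4 of complex I (NDUFA2, NDUFA10, NDUFB6 and NDUFV1), 1 each of complex II (SDHC), complex III (UQCRC1) and complex IV (COX5B), and 3 of complex V (ATP5G1, ATP5G2 and ATP5C1). A full list of nuclear subunits held 78 symbols, of which these 10 could be named, because the rows used here gave a symbol for 1811 genes. The other listed genes were not analysed here, which says nothing about their levels. They thus stand for 4 of 37 listed subunits of complex I, 1 of 4 of complex II, 1 of 9 of complex III, 1 of 11 of complex IV and 3 of 17 of complex V.

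Levels are FPKM, a fragment number scaled to transcript length and to library size, as normalized by the authors. Being per length, they can be set side by side between genes. This scaling does not remove other differences between genes, such as sequence shared with another gene or the extent of the locus counted. In such bulk RNA, fewer cells expressing a gene and less of its RNA per cell cannot be told apart. Their sum over all genes was 621797 to 688297 FPKM per line, and the median gene stood at 1.41 to 1.49 FPKM. Cell type markers could be checked only in part. Endoglin (ENG, CD105), a surface marker of mesenchymal stem cells, was at 72.5, 117 and 73.9 FPKM in Feline ASC 1, 2 and 3. The 4 leukocyte markers that could be named of 8 (ITGB2, CD14, CD2 and CORO1A) lay between 0 and 1.03 FPKM, with CD2 listed at 0 in every line, and 1 of 5 endothelial markers, TEK, lay between 0.013 and 0.059 FPKM. Of 5 muscle markers, the contractile genes SMTN and LMOD1 could be named and were highest in Feline ASC 2, at 112 and 109 FPKM, against 44.7 and 27.4 FPKM in Feline ASC 1 and 56.3 and 22.0 FPKM in Feline ASC 3. The part of these cell differences in the values below was not tested. None of the 6 adipocyte markers could be named.

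All 10 genes were abundant in every line. Each reached 15 FPKM in all lines and lay between the 92.7th and the 99.1st percentile of all genes. Their medians were 106, 112 and 106 FPKM in the 3 lines, or 108 ± 3.61 FPKM (SD, n = 3 lines). The 4755 genes that reached 15 FPKM in all lines, called abundant genes from here on, had medians of 38.6 to 39.3 FPKM. A level of 100 FPKM or more in every line was reached by 5 of the 10 (COX5B, ATP5G2, ATP5C1, NDUFA2 and UQCRC1), compared with 3.59% of all genes. That share counts genes listed at 0, and the 773 genes behind it all lie among the 4755 abundant genes. The 10 genes were chosen with earlier results of these data known. The study had also reported oxidative phosphorylation as over-represented among its genes at this level, so the count is not independent support. SDHC passed it only in Feline ASC 2, and the other 4 stayed below it in every line. Together the 10 genes made up 0.249%, 0.230% and 0.241% of the summed FPKM of Feline ASC 1, 2 and 3, and COX5B and ATP5G2 alone held 49.8% of their sum.

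**Figure D1:**
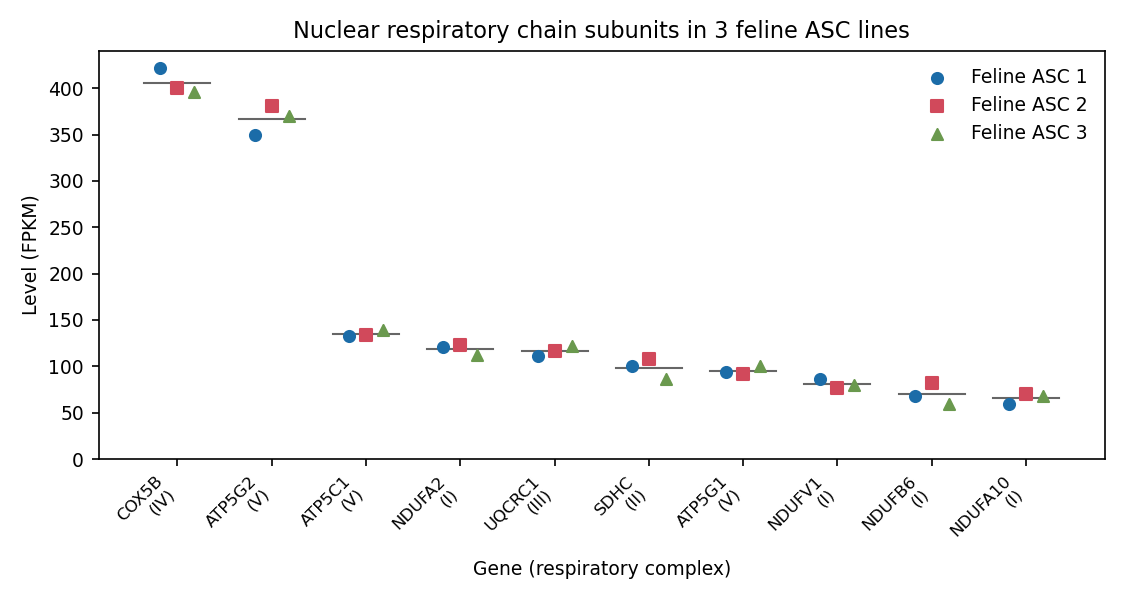
Levels (FPKM) of the 10 genes, ordered by their mean, with the respiratory complex in brackets. Points are the 3 lines, with 1 library each, and horizontal bars are means over the lines. COX5B and ATP5G2 lie between 350 and 422 FPKM, and the other 8 genes between 59.4 and 139 FPKM.

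For complex I, which oxidises NADH and pumps protons, the 4 genes ranged from 59.4 to 123 FPKM. NDUFV1 (ENSFCAG00000001757, chromosome D1, 111835620 to 111840869 of Felis Catus 8.0) encodes the core subunit that binds NADH and flavin mononucleotide, and had 86.8, 76.4 and 80.0 FPKM in Feline ASC 1, 2 and 3. NDUFA2 (ENSFCAG00000001282, chromosome A1, 117322927 to 117325000), an accessory subunit of the same matrix arm, had 121, 123 and 113 FPKM. It was the highest of the 4 in every line, at 1.47 ± 0.13 times NDUFV1 (SD, n = 3 lines). NDUFA10 (ENSFCAG00000002205, chromosome C1, 220012065 to 220035584), an accessory subunit with a fold like that of nucleoside kinases, had 59.4, 69.9 and 67.6 FPKM.

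NDUFB6, an accessory subunit of the membrane arm of complex I, varied more between lines than any other of the 10 genes. Its level (ENSFCAG00000001297, chromosome D4, 57172228 to 57184457) was 68.2, 81.6 and 59.5 FPKM. Feline ASC 2 was the highest and Feline ASC 3 the lowest of the 3, also after each of 3 other scalings of the libraries. Its coefficient of variation was 15.9%, just under the upper quartile of the abundant genes (16.6%). The median of the 4 complex I genes was 77.5, 79.0 and 73.8 FPKM, with a mean of 76.8 ± 2.68 FPKM.

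Complex II links the citric acid cycle to the chain. SDHC (ENSFCAG00000000499, chromosome F1, 62995079 to 63030586) encodes a membrane anchor of this complex that carries heme and binds ubiquinone, and had 99.9, 108 and 86.5 FPKM. Feline ASC 3 had the lowest value, and the coefficient of variation, 11.2%, was the second largest of the 10. UQCRC1 (ENSFCAG00000002100, chromosome A2, 17423289 to 17432438), a core protein of complex III (ubiquinol-cytochrome c reductase), had 112, 116 and 122 FPKM. The lines thus stood in another order for complex III than for complex II, with Feline ASC 3 highest.

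COX5B, a subunit of complex IV (cytochrome c oxidase) on its matrix side, was the most abundant of the 10 genes in every line. It had 422, 401 and 396 FPKM (ENSFCAG00000001704, chromosome A3, 64690963 to 64692634), which placed it at rank 188, 231 and 200 of all genes in Feline ASC 1, 2 and 3. Its coefficient of variation was 3.51%, and 12.3% of the abundant genes had a smaller one. COX5B was at 4.17 ± 0.44 times the level of SDHC, the single gene of complex II (SD, n = 3 lines).

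The 3 genes of complex V included the pair of paralogs ATP5G1 and ATP5G2, which encode different targeting sequences joined to the same mature subunit c. Several copies of subunit c form the rotating ring in the membrane. ATP5G1 (ENSFCAG00000002344, chromosome E1, 38472894 to 38476090) had 93.7, 92.0 and 99.9 FPKM. ATP5G2 (ENSFCAG00000001502, chromosome B4, 82259286 to 82456402) had 350, 381 and 370 FPKM. The ranges of the paralogs did not overlap, and ATP5G2 was the higher one in 3 of 3 lines.

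Within lines, ATP5G2 was 3.73, 4.14 and 3.70 times ATP5G1, or 3.86 ± 0.25 times (SD, n = 3 lines). An exact two-sided sign-flip permutation test of the log2 ratio over the 3 lines gave p = 0.25, which is the smallest value that 3 lines allow. ATP5G2 made up 78.9%, 80.6% and 78.7% of the summed FPKM of the pair. A further gene for the same subunit, ATP5G3, was not analysed here because its symbol was not among the rows used, so the sum is not the whole of subunit c. Reads from sequence shared by the paralogs can be split between them by the counting, and the locus given for ATP5G2 spans 197117 bases, against 3197 bases for ATP5G1. Whether this locus joins ATP5G2 with other transcripts was not tested, and the level, ratio and share of ATP5G2 are those of the locus as quantified.

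The third gene of complex V, ATP5C1 (ENSFCAG00000000196, chromosome B4, 6909033 to 6928893), encodes subunit gamma, the central stalk that turns inside the catalytic head. It had 133, 134 and 139 FPKM and the smallest coefficient of variation of the 10, at 2.41%. ATP5C1 lay between the paralogs, at 1.42 ± 0.03 times ATP5G1, while ATP5G2 was 2.71 ± 0.11 times ATP5C1 (SD, n = 3 lines each). The sum of ATP5G1 and ATP5G2 was 3.34, 3.53 and 3.38 times ATP5C1.

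**Figure D2:**
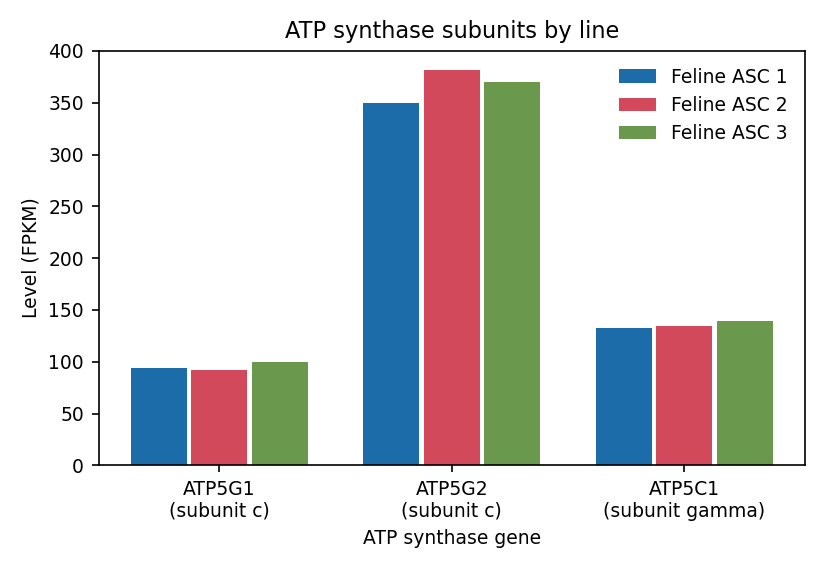
Levels (FPKM, bars from 0) of the ATP synthase genes ATP5G1, ATP5G2 and ATP5C1 in each of the 3 lines, with 1 library per bar. ATP5G2 is at 350 to 381 FPKM, ATP5C1 at 133 to 139 FPKM and ATP5G1 at 92.0 to 99.9 FPKM, and the order is the same in every line.

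When the complexes were set side by side by the median of their genes in each line, complex IV stood highest (406 ± 14.3 FPKM), followed by complex V (135 ± 3.26 FPKM), complex III (117 ± 5.28 FPKM), complex II (98.2 ± 11.0 FPKM) and complex I (76.8 ± 2.68 FPKM; SD, n = 3 lines each). All 10 pairs of complexes kept this order in every line, and the ranges of the lines did not overlap. Complex V was 1.77 ± 0.10 times complex I, and complex III was 1.20 ± 0.18 times complex II. Because complexes II, III and IV were represented by 1 gene each, the order is that of these genes. In another cat assembly, SDHC, UQCRC1 and NDUFA2 overlap other genes, and the part of this in their levels was not tested. The median of complex V was the value of ATP5C1 in every line. Single genes crossed the order of the complexes in every line. ATP5G1 (complex V) lay below UQCRC1 (complex III), and NDUFA2 (complex I) lay above SDHC (complex II). Genes of 1 complex also lay apart, the top mean being 3.86 times the bottom one in complex V and 1.81 times in complex I. The mean of the complex V genes was 199 FPKM, well above their median, since it takes up the level of ATP5G2.

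Single genes kept their order less strictly. Of 45 pairs of genes, 41 had the same order in all lines, and the ranges of 40 pairs did not overlap. In the order of the means (COX5B, ATP5G2, ATP5C1, NDUFA2, UQCRC1, SDHC, ATP5G1, NDUFV1, NDUFB6 and NDUFA10), 4 of 9 neighbouring pairs did not differ beyond the spread of the lines and changed places between them. They were NDUFA2 and UQCRC1, SDHC and ATP5G1, NDUFV1 and NDUFB6, and NDUFB6 and NDUFA10. COX5B and ATP5G2 did not change places, but were close, with COX5B at 1.21, 1.05 and 1.07 times ATP5G2.

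In the values as deposited, most of the 10 genes differed less between lines than the median abundant gene. Their coefficients of variation ran from 2.41% to 15.9% with a median of 4.59%, beside a median of 9.72% over the abundant genes. Of the 10, 8 lay below that median, and SDHC and NDUFB6 lay above it. The abundant genes were not matched to the 10 genes in level. Their medians were 38.6 to 39.3 FPKM per line, beside 106 to 112 FPKM for the 10 genes. The quotient of the top and the bottom line (FPKM + 1) was 1.05 for ATP5C1 and 1.36 for NDUFB6 at the extremes, with a median of 1.09, against 1.20 over the abundant genes.

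Between Feline ASC 1 and 2, the median absolute difference of the 10 genes was 0.096 on the log2(FPKM + 1) scale, compared with 0.18 for the 4755 genes. None of the 10 genes differed by over 25% of the lower FPKM + 1 value in this pair, against 29.0% of the 4755. Feline ASC 1 and 3 gave medians of 0.11 and 0.12, so the 10 genes were close to the rest, and again 0 genes passed, against 14.3%. Feline ASC 2 and 3 gave 0.068 and 0.17, and 1 of the 10 genes passed, against 26.8%. That gene was NDUFB6, with a log2 difference of -0.45 for Feline ASC 3 minus Feline ASC 2. SDHC stood next at -0.32, just inside the limit, and passed it with a pseudocount of 0.1. Averaged over the 3 pairs of lines, the medians were 0.090 ± 0.020 for the 10 genes and 0.16 ± 0.034 for the 4755 (SD of the pairs, which share lines). For genes at 50 FPKM or more in every line, a background nearer to the 10 genes in level, this average was 0.156. With only 10 genes, the counts past 25% are small and were not tested.

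**Figure D3:**
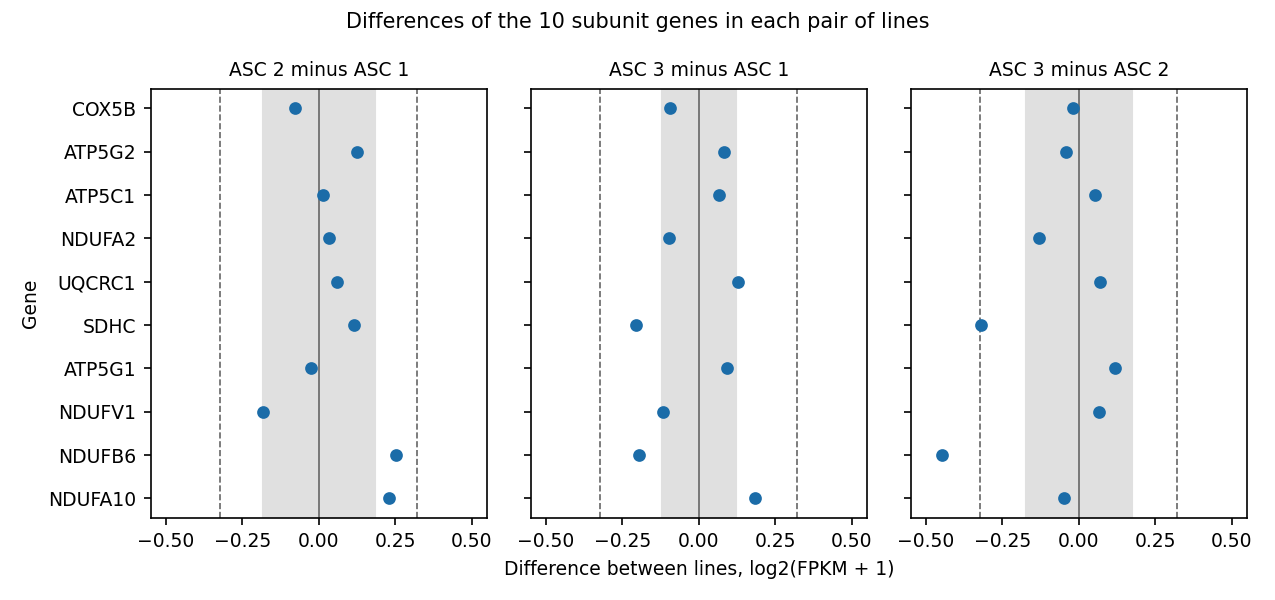
Differences of the 10 genes in each pair of lines (log2(FPKM + 1), 1 library per line). The grey band is plus or minus the median absolute difference of the 4755 abundant genes, and dashed lines mark a difference of 25%. Only NDUFB6, at -0.45 for Feline ASC 3 minus Feline ASC 2, lies beyond a dashed line.

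No line was the highest or the lowest for all 10 genes. In the values as deposited, Feline ASC 2 was the highest line for 5 genes (NDUFA2, NDUFA10, NDUFB6, SDHC and ATP5G2), Feline ASC 3 for 3 (UQCRC1, ATP5G1 and ATP5C1) and Feline ASC 1 for 2 (COX5B and NDUFV1). The place of Feline ASC 2 depended on the scale. Rescaling each library to the same sum (TPM) moved the median of the 4755 genes to -0.11 (log2) for Feline ASC 2 minus Feline ASC 1, from 0.032 as deposited, and moved that of the 10 genes from 0.045 to -0.10. In relation to this shift, the 10 genes stayed with the other genes. Under TPM, Feline ASC 2 was the highest line for 1 gene and the lowest for 6. The shares of abundant genes by highest or lowest line were not computed, but those by pair were. Feline ASC 2 was above Feline ASC 1 for 7 of the 10 genes and 54.9% of the 4755 as deposited. Under TPM it was above for 2 of the 10 genes and 33.7% of the 4755. The same line was highest under all 4 scalings for 6 genes, namely COX5B and NDUFV1 (Feline ASC 1), NDUFB6 (Feline ASC 2), and UQCRC1, ATP5G1 and ATP5C1 (Feline ASC 3).

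A further list, drawn up for isoforms or regulators of the subunits, held 10 genes, and 2 of them could be named. NDUFA4L2 (ENSFCAG00000000189, chromosome B4, 86016573 to 86018139), a paralog of the complex IV subunit NDUFA4 that is known to be induced by low oxygen, had 71.0, 17.9 and 25.7 FPKM. Feline ASC 1 was thus 3.81 times Feline ASC 2 and 2.70 times Feline ASC 3 (FPKM + 1), and 99.2% of the 4755 genes differed less between their highest and lowest line. It was the only named gene of the mitochondrial lists that differed 2-fold or more on this scale. Feline ASC 1 was highest under each of the 4 scalings, with a ratio to Feline ASC 2 of 3.81 to 4.26. None of the 10 subunit genes showed a difference of this size. The second, ATP5SL, was on this list but is not taken here as an isoform or regulator of a subunit. It was named after its values were seen and had 14.6, 11.0 and 12.4 FPKM.

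Other genes that serve the same pathway covered a wide range of levels. SLC25A6, an ADP/ATP carrier of the inner membrane, was the only one of 14 listed carrier genes that could be named, and at 934, 1002 and 979 FPKM it was above all 10 subunit genes in every line. Of 16 genes of pyruvate dehydrogenase and the citric acid cycle, 2 could be named. MDH2, the mitochondrial malate dehydrogenase, had 95.4, 117 and 96.5 FPKM, while PDHB, a subunit of pyruvate dehydrogenase, had 26.3, 24.1 and 28.3 FPKM. The 6 of 73 mitochondrial ribosomal protein genes that could be named all reached 15 FPKM in every line, with a median of 34.8 FPKM, and 0 of them reached 100 FPKM. MRPL18 was the highest, at 63.6 ± 3.24 FPKM, followed by MRPL13 at 43.5 ± 3.82 FPKM and MRPS2 at 39.5 ± 4.13 FPKM (SD, n = 3 lines).

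Among 12 regulators of mitochondrial genes, PPRC1, a coactivator of the PGC-1 family, had 18.1, 22.1 and 21.0 FPKM. PPARGC1A, the founding member of that family, was low, at 0.21, 0.91 and 0.20 FPKM (named after its values were seen). For glycolysis, 2 of 17 genes could be named. PKM, the pyruvate kinase of most tissues, had 532, 678 and 625 FPKM and was above COX5B in every line, and ENO3, the muscle form of enolase, had 8.99, 7.43 and 8.61 FPKM. None of the 44 genes listed as assembly factors could be named. The same held for the 13 subunits encoded by mitochondrial DNA, so nuclear and mitochondrial subunits were not compared here.

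**Figure D4:**
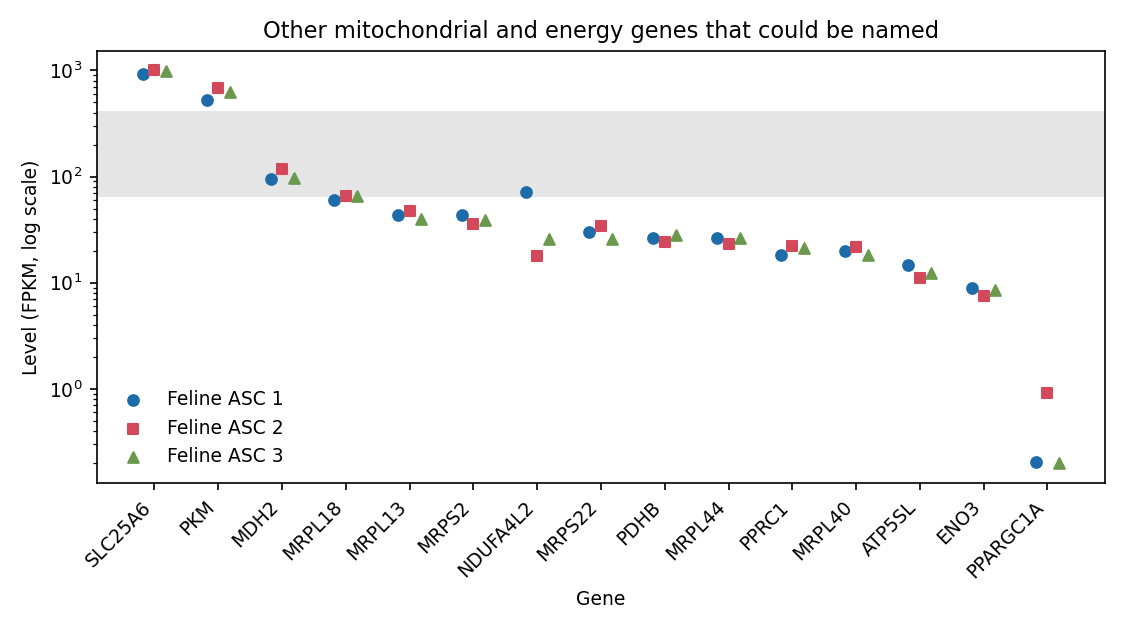
Levels (FPKM, log scale) of 15 other genes of mitochondria and energy metabolism that could be named, ordered by their mean, in the 3 lines with 1 library each. The grey band is the range of the means of the 10 subunit genes (65.6 to 406 FPKM). SLC25A6 and PKM lie above the band in every line, and NDUFA4L2 is spread between 17.9 and 71.0 FPKM.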

How the data were processed

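RNA of 3 feline ASC lines was made into strand-specific libraries from 200 ng of total RNA each, with 15 cycles of PCR. Reads were mapped by the authors with HISAT to the ICGSC Felis Catus 8.0 assembly. Cufflinks gave the gene abundances and Cuffnorm scaled them across libraries, which yielded the deposited FPKM of 21529 genes. Versions, annotation release, strand setting and normalization method were not given in the sources used here. FPKM are not counts, so the fragments behind a value are unknown and no intervals are given. Steps in values under 0.15 FPKM put Feline ASC 1 at about 1.10 times the depth of Feline ASC 2. They were less plain against Feline ASC 3, with about 0.784 and 0.711 times its depth for Feline ASC 1 and 2.

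Lines were numbered in the order of the sample list. The subunit genes and gene lists were chosen with earlier results of these data known. Symbols and loci came from 1997 rows of the study's gene table, since the copy used here was shortened. By rule, the text names all 10 genes, other subunits by rank in their complex, isoforms, regulators, carriers and citric acid cycle genes at 15 FPKM or more in a line or 2-fold apart, up to 3 of the highest of each other list, and cell markers. A RefSeq table of another cat assembly (F.catus_Fca126_mat1.0) held all 10 genes and was used for names only. There, NDUFA2 overlaps TMCO6, SDHC overlaps CFAP126 and UQCRC1 overlaps LOC123383095, and reads of overlapping genes may be uncertain. Protein and promoter sequences were not used here.

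Means, SDs and coefficients of variation were computed on FPKM without a filter, and differences between lines on log2(FPKM + 1), with 4755 abundant genes (15 FPKM or more in each line) beside them. Only the ratio of ATP5G2 to ATP5G1 was tested, since 1 condition gives no groups to compare. Alternatives were TPM, median-of-ratios and quantile scaling, pseudocounts, thresholds and leaving out each line. Python 3.11.15, numpy 2.4.6, pandas 2.3.3, scipy 1.17.1 and matplotlib 3.10.9 were used, and the computations were tested on simulated data.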

Additional observations from a re-analysis of the deposited data

How the results depend on the processing

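Of 64 values recomputed under alternatives, 49 were labelled as unchanged. Levels had to move by less than the SD of the lines, and median differences by less than the SD of the pairs. Counts had to stay within 1.5 times, and the ratio of ATP5G2 to ATP5G1 only had to stay above 1. For levels, leaving out 1 of 3 lines cannot move the mean by a full SD, so those values could only be labelled as unchanged. The ratio of ATP5G2 to ATP5G1 stayed between 3.72 and 3.94 under every alternative run. Scaling acts on whole libraries or keeps ranks, so it cannot change the order of genes within a line. Rescaling to TPM raised all levels, to a median of 167 for the 10 genes, 118 for complex I and 209 for complex V, with 8 of the 10 genes and 5.65% of all genes at 100 or more in every line. It also put 1 gene, NDUFV1, past a 25% difference between Feline ASC 1 and 2, beside 31.8% of the abundant genes. Thresholds of 50 and 150 FPKM gave 10 and 2 genes in place of 5, beside 7.51% and 2.31% of all genes. The mean over genes in place of the median gave 83.8 FPKM for complex I and 199 FPKM for complex V. The median absolute log2 difference of the 10 genes (0.090) was 0.14 under TPM and 0.11 after quantile normalization, beside 0.17 and 0.16 for the abundant genes. With 1 line left out, which leaves 1 pair, it ranged from 0.068 (without Feline ASC 1) to 0.11, and that of the abundant genes from 0.12 (without Feline ASC 2) to 0.18. Between Feline ASC 2 and 3, 2 genes (NDUFB6 and SDHC) passed 25% with a pseudocount of 0.1 and 0 passed at 1.5-fold, beside 27.7% and 11.1% of the abundant genes. All nuclear subunits that could be named were the 10 genes themselves, so the planned widening of the complexes gave no new value. No paired analysis was possible because the labels give 1 group, so no groups share replicate numbers. Ratios between genes were taken within lines throughout. Without counts, the precision set by depth is unknown.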
